A study of Mus musculus with 6 samples.

Results

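The genes described here encode the antigen-presenting molecules of the major histocompatibility complex (MHC), 4 of class I and 6 of class II, measured in erythroblasts of mice with 1 or with no intact allele of P38α. They were taken by gene name from the array annotation, and the names H2-K1, H2-D1, B2m and Tap1 (class I) and H2-Aa, H2-Ab1, H2-Eb1, H2-DMa, Cd74 and Ciita (class II) were found on 12 of 55681 probes, 10 of 34821 gene names. All 10 genes had a probe, and 11 of the 12 probes were bright enough to be tested, the exception being the Ciita probe.

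The 2 groups were P38hetero (Mx1-Cre/P38α fl/+, written P38α+/−) and P38ko (Mx1-Cre/P38α fl/fl, written P38α−/−), with 3 mice and 3 arrays each. The genetic background was C57BL/6. All mice were 6 to 8 weeks old and received 3 injections of 300 µg PolyIC, then 6 weeks of rest, then 1 dose of phenylhydrazine (PHZ) at 100 mg per kg to destroy mature red cells. On day 4 of recovery, CD71highTer119+ bone marrow erythroblasts were sorted, and 10 ng of RNA from each mouse was read on a 1-colour (Cy3) Agilent array of the mouse genome. The comparison asks which erythroblast transcripts differ when P38α is lost during recovery from anemia. Mx1-Cre is driven by an interferon-responsive promoter and is active in many hematopoietic cells, so the deletion is not specific to the erythroid lineage. PolyIC is itself an inducer of interferon, to which MHC genes respond, and both groups received it.

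MHC class I molecules are carried by almost every nucleated cell and consist of a heavy chain (H2-K1, H2-D1) paired with the light chain B2m. They present peptides cut in the cytosol by the proteasome and pumped into the endoplasmic reticulum by the Tap1/Tap2 transporter. Class II molecules are largely restricted to professional antigen-presenting cells, such as B cells, dendritic cells and macrophages. Their α and β chains (H2-Aa with H2-Ab1, and H2-Eb1 with the E α chain in strains that make it) assemble with the invariant chain Cd74. H2-DMa with H2-DMb1 loads the peptide. Ciita is the master transcriptional activator of class II genes, and Nlrc5 has the like role for class I. Red cell precursors lose their nucleus and much of their surface MHC as they mature.

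Every value is a log2 signal from which its array's 75th percentile was subtracted, taken over 15538 probes that all 6 arrays detected well above background. A value of 0 is therefore the brightness of a fairly bright detected probe, and values of different probes cannot be set against each other. Between 36.9% and 53.1% of probes were well above background in the P38hetero arrays and between 28.9% and 35.9% in the arrays labelled P38ko. The erythroid markers that had a probe, 9 of 10, were well above background on all arrays. The 2 probes of Mapk14, the gene of P38α, were not lower in the arrays labelled P38ko. The brighter one read 0.33, 0.58 and 0.61 in P38hetero and 0.76, 1.19 and 1.20 in P38ko (log2 fold change 0.54, SE 0.19, adjusted p = 0.186 by limma, where SE is the standard error). The other had a difference of 0.01 on the log2 scale, with an SE of 0.42. The sources used here do not say which exons were removed, so a probe outside them checks nothing, and directions below are those of the labels. P38ko replicate 3 was alone on its slide, and the other 5 arrays shared 1 slide.

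By limma with Benjamini-Hochberg adjustment over 18782 tested probes (adjusted p at most 0.05 and at least 2-fold), 0 of the 9 tested MHC genes differed between the genotypes, where 0.149% of all tested probes did (0.0373% lower and 0.112% higher). At an unadjusted p of at most 0.05, 2 of the 9 passed (B2m and Tap1), where 20.9% of all probes did, and by the methods' unpaired test 0 passed. All 9 had a mean below that of P38hetero in the arrays labelled P38ko, a direction shared by 67.0% of all tested probes. The mean difference was at least 2-fold for 2 of them (Tap1 and H2-DMa), where 11.1% of all tested probes were that much lower. The genotypes overlapped for all 9, where 20.8% of all tested probes were lower without overlap (27.7% did not overlap in either direction). Ciita is left out of these counts and described on its own.

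The 9 tested genes also had much of their order over the arrays in common. In all 9, P38hetero replicates 1 and 2 were brighter than all 3 arrays labelled P38ko, as in 31.6% of all tested probes, and P38hetero replicate 3 was the dimmest P38hetero array, as in 44.2%. Among the arrays labelled P38ko, replicate 3 was the dimmest for 8 of the 9 genes, where 29.9% of all tested probes had it so. The exception was H2-K1 by its probe of higher mean. The replicate numbers were taken to mark pairs of mice, and 6 of the 9 genes were lower in the P38ko member of all 3 pairs, where 38.7% of all tested probes were. With the pair as a block, 6 of the 9 tested genes had an unadjusted p of at most 0.05 by limma, where 28.1% of all probes did. After adjustment 0 passed, where 0.341% of all probes did. The 10-spot probe of H2-K1, which is not in these counts, was dimmest in P38ko replicate 3 and lower in all 3 pairs. Its unadjusted p by limma with the pair as a block was 0.0272.

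**Figure D1:**
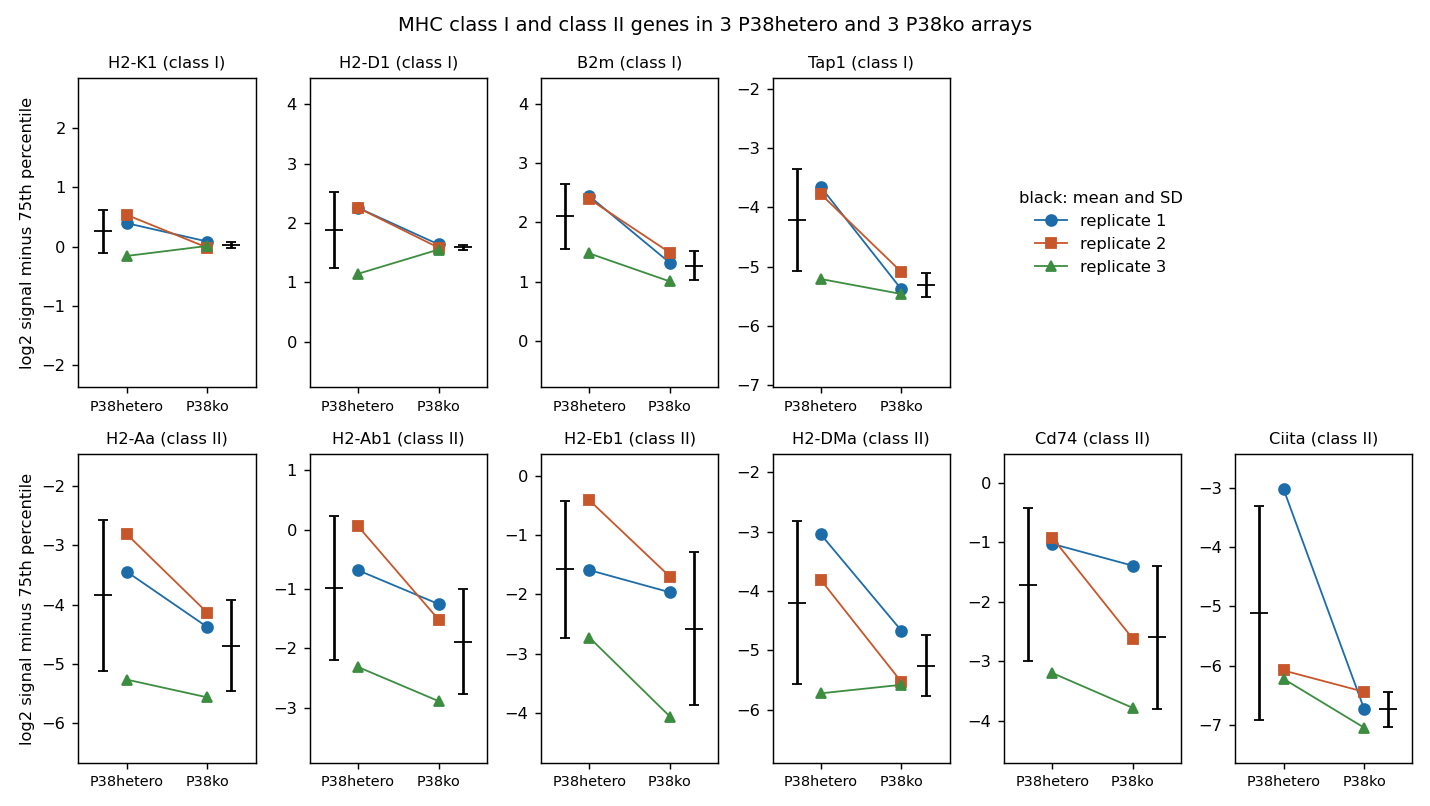
Log2 signal minus the array's 75th percentile (vertical axes, all spanning the same range) of the 4 class I and 6 class II genes in the P38hetero and P38ko arrays, each point an array, with lines joining arrays of the same replicate number and black bars giving the mean and SD of 3 arrays. In the panels of the 9 tested genes, P38hetero replicates 1 and 2 lie above all 3 P38ko arrays and P38hetero replicate 3 lies below at least 1 of them; the P38ko points of Ciita are not above background.

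Of the class I genes, B2m (chromosome 2 of mm9, 121978401 to 121978460, 2 spots) read 2.44, 2.39 and 1.48 in P38hetero and 1.32, 1.49 and 1.00 in the arrays labelled P38ko. The groups overlapped only through P38hetero replicate 3 and P38ko replicate 2, which were nearly equal. The log2 fold change was −0.83 (1.78-fold, SE 0.30, adjusted p = 0.199 by limma; two-sided exact permutation p = 0.20), and with the pair as a block the adjusted p was 0.0910. Over all alternatives the adjusted p ran from 0.0632 to 1.00.

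Tap1, the transporter subunit (chromosome 17, 34330854 to 34330913, 10 spots), read −3.66, −3.78 and −5.21 in P38hetero and −5.38, −5.09 and −5.46 in P38ko. It was dim, and 2 of the 3 P38ko arrays were well above background. The log2 fold change was −1.10 (2.14-fold, SE 0.42, adjusted p = 0.217 by limma). Its 10 spots varied by an SD of 0.11 to 0.38 within an array, against 0.86 between the P38hetero arrays. Without P38hetero replicate 3 its adjusted p was 0.0503, in a range of 0.0503 to 1.00 over the alternatives.

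The heavy chains differed less between the groups. H2-D1 (chromosome 17, 35403886 to 35403945) read 2.26, 2.26 and 1.15 in P38hetero and 1.64, 1.58 and 1.55 in P38ko, so P38hetero replicate 3 was the dimmest of all 6 arrays. The difference between genotypes was −0.29 on the log2 scale (SE 0.32, adjusted p = 0.647 by limma). H2-K1 had 2 probes on chromosome 17. The one with the higher mean (34133984 to 34134043) read 0.39, 0.53 and −0.16 in P38hetero and 0.09, −0.02 and 0.01 in P38ko, with a log2 fold change of −0.23 (SE 0.21, adjusted p = 0.578 by limma). The other (34133055 to 34133114, 10 spots) read 0.52, 1.00 and −0.20 against −0.19, 0.02 and −0.44, with a log2 fold change of −0.65 (SE 0.32, adjusted p = 0.307 by limma). The 10 spots of this probe varied by an SD of at most 0.07 within an array, against 0.61 between the P38hetero arrays. With the percentile taken over all probes, which moved the median of all tested probes from −0.16 to 0.32, the first H2-K1 probe read 0.25 and H2-D1 0.19, both still below that median, and the 10-spot H2-K1 probe stayed negative at −0.16.

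The H2-K1 probes differ in how much sequence they share with probes of other genes, which matters for reading a class I heavy chain on an array. The 10-spot probe had no run of 15 or more bases in common with a probe of any other gene. The other shared a run with 4 probes of other names, the longest being 29 bases of the probe for H2-T23, a non-classical class I gene. Both probes are shown 5′ to 3′ with the shared run in capitals.
H2-K1: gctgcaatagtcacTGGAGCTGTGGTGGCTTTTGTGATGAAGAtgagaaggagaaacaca
H2-T23: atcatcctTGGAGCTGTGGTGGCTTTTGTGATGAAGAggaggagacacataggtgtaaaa
H2-T23 read 2.97, 2.96 and 2.87 in P38hetero and 2.81, 2.94 and 2.86 in the arrays labelled P38ko, with a log2 fold change of −0.06 (SE 0.14). Its 6 arrays were nearly level, unlike those of either H2-K1 probe. Whether H2-T23 transcripts add to the signal of the H2-K1 probe was not tested. The probes of H2-D1, B2m and Tap1 had no run of 15 or more bases in common with a probe of another gene. Probes were compared only with other probes, so sequence shared with the transcripts of other genes was not tested.

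Of the class II genes, Cd74, the invariant chain (chromosome 18, 60972075 to 60972132), read −1.02, −0.92 and −3.20 in P38hetero and −1.39, −2.62 and −3.79 in P38ko. The difference between genotypes was −0.89 on the log2 scale (1.85-fold, SE 0.81, adjusted p = 0.574 by limma). P38hetero replicates 1 and 2 were nearly equal, and replicate 3 was the dimmest in both genotypes.

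H2-Ab1, the β chain of I-A, was read by 2 probes whose sequences share 41 bases at overlapping positions (34406296 to 34406355 and 34406305 to 34406363 on chromosome 17), so they are not independent readings. The first read −0.69, 0.06 and −2.31 in P38hetero and −1.25, −1.52 and −2.89 in the arrays labelled P38ko, with a log2 fold change of −0.91 (1.87-fold, SE 0.70, adjusted p = 0.496 by limma). The second gave −0.97 (SE 0.64, adjusted p = 0.429). Within the P38hetero group alone the first probe spanned more than the difference between the genotypes, with an SD of 1.21.

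The α chain H2-Aa (34421285 to 34421344) read −3.45, −2.81 and −5.26 in P38hetero and −4.38, −4.13 and −5.56 in P38ko, a log2 fold change of −0.85 (SE 0.69, adjusted p = 0.520 by limma). H2-Eb1, the β chain of I-E (34453075 to 34453134), read −1.59, −0.42 and −2.73 against −1.96, −1.70 and −4.06, a log2 fold change of −0.997 (SE 0.80, adjusted p = 0.516). In both genes the replicate 3 arrays were the dimmest of their genotype, and P38hetero replicate 3 lay below P38ko replicates 1 and 2.

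H2-DMa, which edits the peptide cargo (chromosome 17, 34274300 to 34274863), read −3.05, −3.81 and −5.72 against −4.67, −5.53 and −5.58, a log2 fold change of −1.07 (2.09-fold, SE 0.68, adjusted p = 0.417). Here pair 3 went the other way, with P38ko replicate 3 higher by 0.14 than P38hetero replicate 3.

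Ciita (chromosome 16, 10526568 to 10526627) read −3.03, −6.08 and −6.22 in P38hetero and −6.73, −6.44 and −7.04 in the arrays labelled P38ko. It was well above background on 2 of the 3 P38hetero arrays and on 0 of the 3 P38ko arrays, and so was not tested. Its mean was at least 2.05-fold higher in P38hetero, setting the P38hetero mean against, for each P38ko array, the higher of the probe's own signal and the dimmest signal called well above background. That bound rests on P38hetero replicate 1, since the values of replicates 2 and 3 lie below −5.48, the dimmest signal called well above background in P38ko replicate 1, and so have no order against that array. Of the probes of other names, 15 share a run of 15 or more bases with the Ciita probe, and their part in its signal was not tested.

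Set side by side, the class II genes had a median log2 fold change of −0.95 (the same with Ciita at its bound, and −0.91 without it) and the class I genes one of −0.56, where the median of all tested probes was −0.16. The class II values were close together, from −0.85 to −1.07 for the 5 tested genes, while the class I values ran from −0.23 for H2-K1 to −1.10 for Tap1. H2-K1 stands here by the probe that shares a run with that of H2-T23, and its 10-spot probe gave −0.65. With the 10-spot probe the smallest class I fall would be the −0.29 of H2-D1. The class I median would then lie nearer to that of class II. The mean of the 5 tested class II genes lay at −1.96, −1.58 and −3.85 in P38hetero and −2.73, −3.10 and −4.38 in the arrays labelled P38ko, a span of 2.79 over the 6 arrays. That of the class I genes lay at 0.36, 0.35 and −0.69, then at −0.58, −0.51 and −0.72, a span of 1.08. The class II mean minus the class I mean was −2.47 ± 0.63 (SD, n = 3) in P38hetero and −2.80 ± 0.77 in P38ko, and the difference of −0.33 between them was smaller than either SD. Within pairs that difference was 0.17, −0.66 and −0.49, so its sign was not the same in all pairs. With so few arrays and genes this contrast was described and not tested.

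The class II median depended on single arrays. It was −0.41 without P38ko replicate 3 (and so also within the slide that holds the other 5 arrays), −0.45 without P38hetero replicate 2, −0.62 without P38hetero replicate 1 and −1.60 without P38hetero replicate 3. The class I median was −0.90 without P38hetero replicate 3 and between −0.40 and −0.62 when any other array was left out. Without P38hetero replicate 3, 7 of the 9 tested genes had an unadjusted p of at most 0.05 by limma, where 22.6% of all tested probes did, and 0 passed after adjustment. With any other array left out that count was 0, or 1 without P38ko replicate 2.

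Markers of cells that normally carry class II were set beside these values. Both P38hetero replicates 1 and 2 were brighter than all arrays labelled P38ko for 10 of 11 B cell markers and for 6 of 11 monocyte or macrophage markers. That order was found in 31.6% of all tested probes, and also in every marker of the neutrophil list described below. The share is over tested probes only, while 6 of the B cell and 7 of the monocyte or macrophage markers were tested. The untested ones include Mrc1, Pax5 and Igll1, whose order lies partly or wholly within background. Of the 11 B cell markers all had a probe that was well above background on at least 1 array, and their summed signal (on the linear scale, in units of the array's 75th percentile) was 1.59, 2.17 and 0.28 in P38hetero and 0.43, 0.32 and 0.21 in P38ko. Cd79b, part of the B cell receptor, read −1.15, −0.46 and −4.20 in P38hetero and −3.07, −4.81 and −5.19 in P38ko. Vpreb3, expressed by B cell precursors, read −1.94, −0.88 and −5.27 against −4.66, −5.54 and −5.81, and the signalling adaptor Blnk −1.89, −1.47 and −3.55 against −2.65, −2.33 and −3.16. Ms4a1, Pax5, Ebf1 and Igll1 were among the markers not well above background on any P38ko array. Ebf1, a B cell transcription factor, was at least 3.48-fold higher in P38hetero. It entered the test through the P38hetero arrays alone. Its adjusted p by limma (0.0481 with the pair as a block, 0.0663 without it) therefore sets signal against background, and nothing is drawn from it.

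Of 13 monocyte or macrophage markers, 11 had a probe, 9 were well above background on some array and Mrc1 and Siglec1 on none. Their sum was 1.42, 1.63 and 0.69 in P38hetero and 0.92, 0.66 and 0.44 in P38ko. Csf1r, the receptor for macrophage colony-stimulating factor, had a log2 fold change of −0.91 (SE 0.25, adjusted p = 0.144 by limma), Vcam1, an adhesion molecule of the macrophages in erythroblastic islands, one of −1.75 (SE 0.85) and Cd68 one of −0.43 (SE 0.57), with P38ko replicate 1 its brightest array. The 14 neutrophil markers, all detected, summed to 112 to 294 in P38hetero and 59.9 to 84.3 in P38ko, without overlap. The T or NK cell markers, of cells largely without class II in mice, summed to 1.61, 2.74 and 0.77 in P38hetero and 0.73, 0.63 and 0.57 in P38ko, again highest in P38hetero replicates 1 and 2.

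Of 9 dendritic cell markers, Clec9a was too dim on every array to be called above background, and the sum, 15.3 to 18.3 in P38hetero and 12.6 to 14.2 in P38ko, was nearly all Siglech, which read 3.62 to 4.13 throughout. Bst2 had a log2 fold change of −1.02 (SE 0.28, adjusted p = 0.141 by limma) and Tcf4 one of −0.35 (SE 0.34). Zbtb46, a factor of classical dendritic cells, had one of 0.32 (SE 0.22) and was higher in the P38ko member of all 3 pairs. Zbtb46 was the exception among the tested markers of this list. Of the 9 listed, 7 had a P38ko mean below that of P38hetero, where 67.0% of all tested probes did. The erythroid sum overlapped, at 271 to 325 in P38hetero and 261 to 337 in P38ko. The part of any of these cells in the MHC values was not tested, and in sorted bulk RNA fewer cells of a type and less RNA per cell cannot be told apart.

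**Figure D2:**
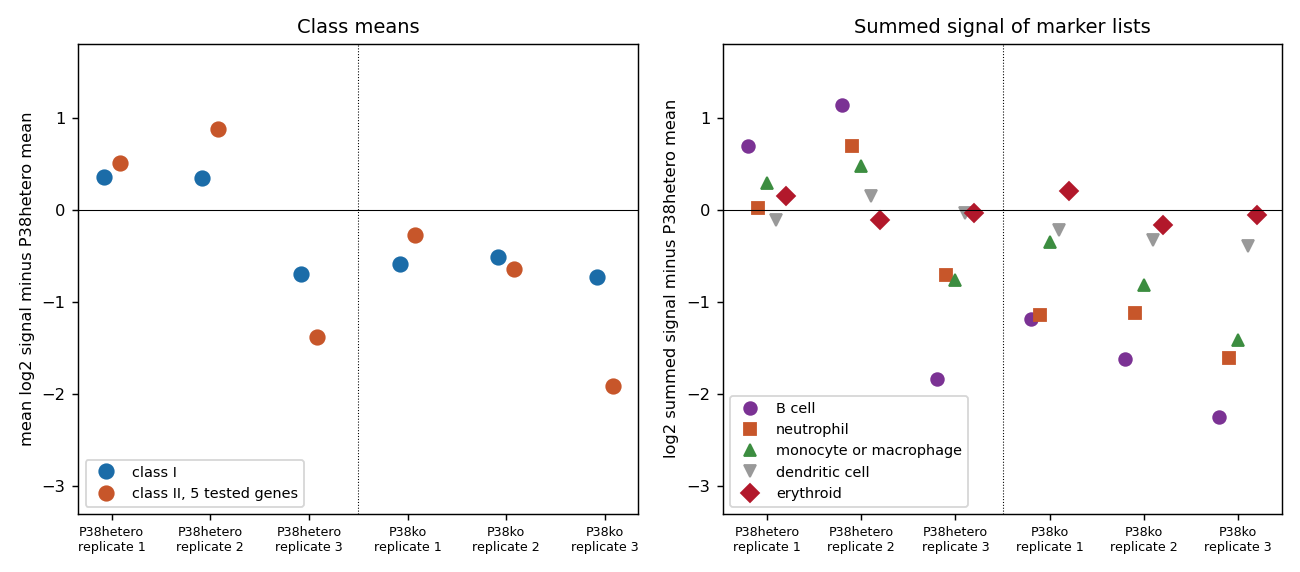
For each of the 6 arrays, the mean log2 signal of the class I and of the 5 tested class II genes (left) and the log2 of the summed linear signal of 5 marker lists (right), each minus its mean over the 3 P38hetero arrays; points are set slightly apart sideways so that none is hidden. Class II spans 2.79 and class I 1.08. In each genotype the B cell, neutrophil and monocyte or macrophage sums are all lowest in replicate 3, as the class I and class II means are. Replicate 3 was the dimmest P38hetero array for 44.2% of all tested probes and the dimmest P38ko array for 29.9%. The erythroid sum stays near 0.

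Other genes of the class I pathway lay in both directions. Of 30 listed genes, 27 had a probe and 21 were tested. By limma 0 were higher and 0 lower. Without overlap 6 were lower and 2 higher, where 20.8% and 6.94% of all tested probes were. The median log2 fold change was −0.32 over the 27 and −0.19 over the 21 tested. Over all probes of the array the median was −0.27, and over all tested probes −0.16. Psmb8 and Psmb9 are immunoproteasome subunits, which replace standard catalytic subunits of the proteasome. Psmb8 read −1.95, −1.29 and −3.26 in P38hetero and −3.41, −3.86 and −4.01 in the arrays labelled P38ko, without overlap (log2 fold change −1.59, SE 0.50, adjusted p = 0.160 by limma). Psmb9 gave −0.94 (SE 0.47, adjusted p = 0.303). Nlrc5 read −3.78, −4.44 and −5.78 against −6.54, −6.20 and −7.43, with 1 of the 3 P38ko arrays well above background, and a log2 fold change of −2.05 (SE 0.56, adjusted p = 0.143). Its other probe was too dim to be tested and gave −0.31. The largest positive values were those of H2-T10, a non-classical class I gene (0.51, SE 0.16), Psme2, a proteasome activator subunit (0.31, SE 0.17), and Tap2, the partner of Tap1 (0.23, SE 0.28), with adjusted p between 0.158 and 0.690. Tap1 and Tap2, whose products work as a pair, had values of opposite sign, but that of Tap2 was −0.0484 without P38hetero replicate 3, and neither passed the test.

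The class II pathway list had 22 names, 19 with a probe and 12 tested. The median was −0.26 over the 19 and −0.13 over the 12 tested. By limma 1 gene was higher and 0 were lower, where 0.112% of all tested probes were higher. The one was Lgmn, legumain, a lysosomal protease that cuts antigens and the invariant chain (chromosome 12, 103632415 to 103632474). Lgmn read −1.999, −1.44 and −1.94 in P38hetero and 0.19, 0.34 and 0.37 in the arrays labelled P38ko. The groups lay far apart and each was tight. The difference between genotypes was 2.09 on the log2 scale (4.26-fold, SE 0.20, adjusted p = 0.0343 by limma). The call was lost with the pair as a block (adjusted p = 0.0520) and with any array but P38hetero replicate 3 left out, where the adjusted p was 0.0793 to 0.208, and over all alternatives the adjusted p ran from 5.72e-05 to 1.00 while the log2 fold change stayed between 1.88 and 2.57. Ifi30, a lysosomal thiol reductase, had 0.54 (SE 0.20, adjusted p = 0.203), and Rfxank, a subunit of the factor that binds class II promoters, 0.44 (SE 0.24).

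Among the tested genes of that list the largest negative value was that of Ctss (−1.41, SE 0.56, adjusted p = 0.225 by limma). Ctss is the protease that trims the invariant chain in antigen-presenting cells. Next came H2-DMb1, the partner of H2-DMa (−0.99, SE 0.58), and Ctsl, a related protease (−0.57, SE 0.22). The untested H2-Oa (−2.37), H2-Ob (−1.22) and H2-DMb2 (−1.09) were not well above background on any P38ko array. A dimmer tested probe of March1 gave −1.35, and its brighter probe −0.28. Thus Lgmn and Ctss, both proteases of this pathway, had values of opposite sign. H2-DMb2, H2-Eb2, H2-Ea-ps and Rfx5 were not well above background on any array.

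Of 10 genes of interferon γ signalling, which induces both classes, 8 were tested, 0 were higher and 0 lower by limma, and the median was −0.21. Irf8, a factor of myeloid and B cells, had −1.61 (SE 0.68, adjusted p = 0.247), the receptor chain Ifngr1 −1.28 (SE 0.44, adjusted p = 0.186) and Irf1, which acts on class I promoters, −0.94 (SE 0.44). The kinases Jak2 (0.27, SE 0.18) and Jak1 (0.15, SE 0.16) had small positive values. Ifng itself was well above background on 1 array.

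**Figure D3:**
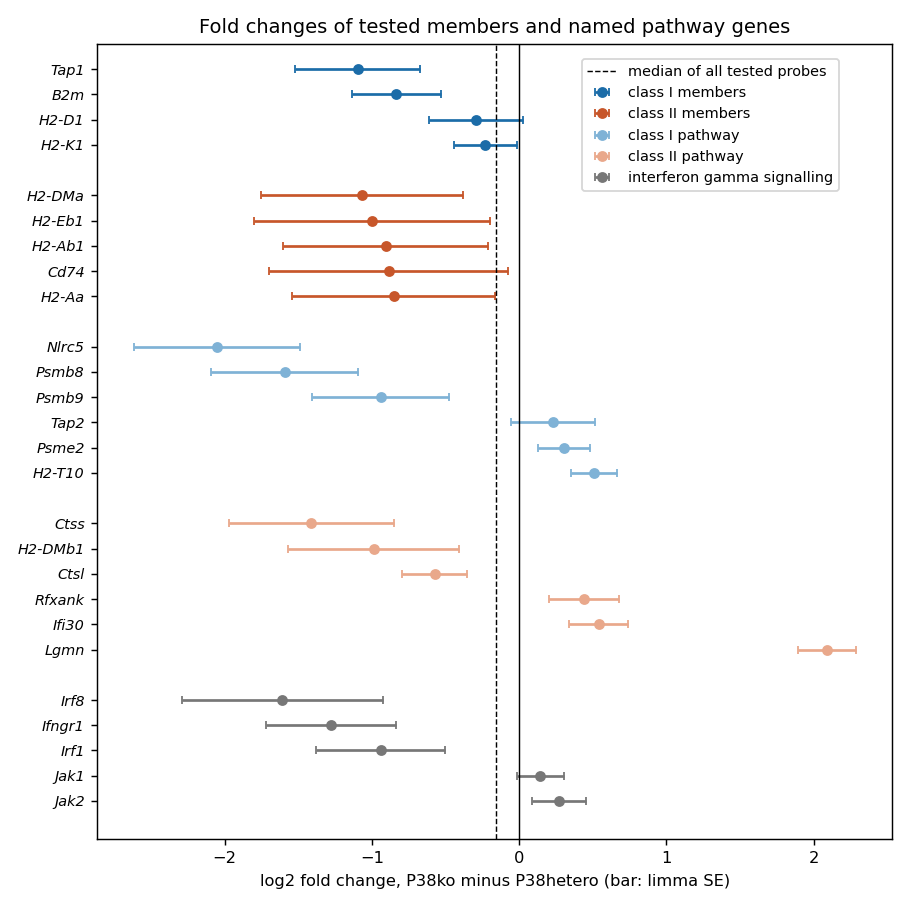
Log2 fold change of P38ko minus P38hetero (points) with limma's standard error (bars) for the tested genes of the 2 MHC classes and, from the class I pathway, class II pathway and interferon γ lists, the tested genes with the largest positive and negative values; the dashed line is the median of all tested probes, −0.16. Class II members lie between −0.85 and −1.07, class I members spread from −0.23 to −1.10, and Lgmn stands alone at 2.09.

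All members but B2m, Cd74 and Ciita lie on chromosome 17, which also holds Mapk14. In mm9 their probes lay 5.25 to 6.52 Mb from the brighter Mapk14 probe, within a stretch of 1.27 Mb (34133055 to 35403945). Between them, 62 tested probes of 53 other genes were found, of which 0 passed by limma. Of these probes, 5 belonged to listed pathway genes or to a gene whose name starts with H2- (H2-Ke6, which is on no pathway list). The 57 probes of the remaining 48 genes had a median log2 fold change of −0.22, where the median of all tested probes was −0.16, and 34 of the 57 lay below that median. They ranged from −2.29 to 0.57. The lowest was Tnf, the gene of tumour necrosis factor, named here after its value was seen (adjusted p = 0.130 by limma). Tnf was well above background on all 3 P38hetero arrays and on 0 of the P38ko arrays, so its value sets signal against background.

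**Figure D4:**
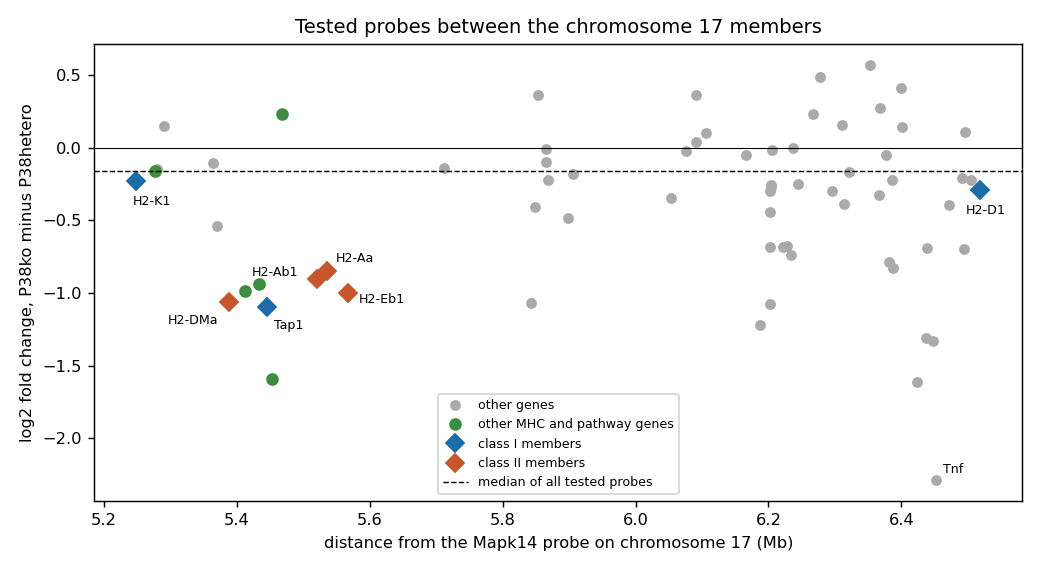
Log2 fold change of P38ko minus P38hetero for every tested probe between the chromosome 17 members, against its distance in Mb from the brighter Mapk14 probe. Diamonds are members, green points listed pathway genes and H2-Ke6, grey points other genes, and the dashed line the median of all tested probes. Class II members and Tap1 lie between −0.85 and −1.10, and the grey points scatter on both sides of the dashed line around their median of −0.22.

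The promoters of the members were compared as a description of their sequence. Whether these sequences bear on the array values was not tested. RefSeq promoters (GRCm38.p6, 250 bases before to 50 after the start of transcription) were found for 7 of the 10 genes, and those of H2-Ab1, Cd74 and Ciita were not used here. MHC promoters are known for an X box, whose second part resembles a cyclic AMP response element, followed by a Y box that binds NF-Y. The letters TGANG followed on the same strand by ATTGG, with 12 to 27 bases between, were searched on both strands and found for 5 of the 7 (H2-K1, H2-D1, B2m, H2-Aa and H2-Eb1, not Tap1 or H2-DMa), and in 3.73% of all 32851 promoters. The spacing was 20 bases in H2-K1, H2-D1 and B2m, 21 in H2-Aa and 19 in H2-Eb1. ATTGG alone was found in 37.4% and TGANG alone in 89.4% of all promoters. TGACG, a narrower form of TGANG, was found in 20.8%.

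The windows around these letters are shown 5′ to 3′ with the searched letters in capitals, from chr17:34000348-34000462 (minus strand), chr17:35262919-35263034 (plus), chr2:122147544-122147650 (plus), chr17:34287855-34287911 (minus) and chr17:34305770-34305824 (plus), in that order.
H2-K1: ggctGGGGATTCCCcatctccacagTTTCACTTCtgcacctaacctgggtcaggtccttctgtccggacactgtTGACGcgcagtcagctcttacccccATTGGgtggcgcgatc
H2-D1: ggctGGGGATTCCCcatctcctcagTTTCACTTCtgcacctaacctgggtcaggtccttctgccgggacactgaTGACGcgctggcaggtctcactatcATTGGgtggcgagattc
B2m: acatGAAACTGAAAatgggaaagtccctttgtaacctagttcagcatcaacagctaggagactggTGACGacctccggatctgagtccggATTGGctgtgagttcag
H2-Aa: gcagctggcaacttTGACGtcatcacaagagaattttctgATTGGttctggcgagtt
H2-Eb1: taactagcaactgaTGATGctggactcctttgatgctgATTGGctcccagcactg
Both heavy chain genes also held the first capitals of their windows, a match to the κB element, which are in 0.107% of all promoters, and TTTCNNTTC, part of an interferon response element, in 7.52%. B2m held GAAA, any 2 bases and GAAA again, the core of such an element read on the other strand, in 3.44% of all promoters. These letters are a description of the windows and not a measure of binding.

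The genes most like each class over the 6 arrays were found by Pearson correlation with the mean of all genes of the class, Ciita included, as a description over 6 arrays that share their scaling. For class I they were Slc44a1, Atxn10, R3hcc1l, Gm5595 and Dock2 (r from 0.989 to 0.992), of which Dock2 is a guanine nucleotide exchange factor of leukocytes. For class II they were Mfng, which modifies Notch receptors, Snapin, Atad3a, 2610002J02Rik and a probe named only by its position on chromosome 2 (r from 0.992 to 0.998). Among the 9 tested members the median r over pairs of genes was 0.89 within class II, 0.89 within class I and 0.85 between the classes.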

How the data were processed

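RNA of sorted erythroblasts from 3 P38hetero and 3 P38ko mice was measured on 1-colour Agilent arrays. The authors deposited the background-corrected intensity of every spot from Feature Extraction 10.7.3.1, not normalized between arrays, with probe positions in mm9. They also deposited a table of linear intensity values normalized between arrays by steps not given in the sources used here; its column for P38ko replicate 2 correlated with that array's own signal at a Spearman rho of 0.897, against 1.00 for the other 5. Samples were grouped from their titles, and 0 columns were left unassigned. The members, gene lists and rules were chosen with earlier results of these data known.

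Control spots and outlier flags were removed and repeated spots of a probe averaged; 0 spots were saturated. Log2 intensities were centred on the 75th percentile of the 15538 probes that every array detected well above background, since under 50% of probes were detected on 5 of the 6. A probe was tested if well above background on all 3 arrays of either genotype. The test was limma's moderated one (version 3.58.1 in R 4.3.3; lmFit, then eBayes; two-sided), checked on simulated data. Single probes were also compared by exact permutation, whose smallest p is 0.10. Each gene stands by its tested (otherwise any) probe of highest mean. The text names all members. Among the tested genes of each pathway list it names the 3 largest rises, the 3 largest falls and any gene past the threshold. Also named are the 3 brightest B cell, dendritic and macrophage markers (dendritic ones by either the P38hetero mean or the mean over all arrays). Genes between the members past the threshold and the 5 genes most like each class are named too.

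For arrays with the same replicate number, deviations from the genotype means had correlations of 0.538, 0.312 and 0.424, and for other combinations at most 0.183, and the design text speaks of pairs of mice, so the numbers were taken to pair the samples. The alternatives were other scalings, background corrections and filters, the log2 of the deposited table, replicate and slide blocks, array weights, the methods' unpaired equal-variance test, each array left out, and the mean over a gene's probes. The number of arrays limits the precision. A few list genes and 1 sequence are not reported here.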

Additional observations from a re-analysis of the deposited data

How the results depend on the processing

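No MHC gene passed under any of the 18 alternatives run for that count, the replicate block included (0 in each), although the number of probes called over the whole array ran from 0 to 813, against 28 (21 of them higher), and was 64 (26.6% higher) with the replicate block. The median of all tested probes moved from −0.16 to 0.32 when the 75th percentile was taken over all probes. Under that scaling H2-K1 read 0.25, H2-D1 0.19 and the class I median −0.0813, all still below the median probe. The class II median kept its sign throughout, from −1.60 without P38hetero replicate 3 to −0.41 without P38ko replicate 3, and the class I median from −0.90 to −0.40 when arrays were left out. Of 181 values of single members under the alternatives, 179 kept their sign, and 178 lay below the median of all tested probes. Ciita, too dim to be tested, was left out of the class II median where another scaling, filter or weighting was used.

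The count of class II pathway genes (1, Lgmn) was 0 with E1A spike-in centring, the deposited table, the methods' t-test, no filter, the replicate block and the slide block, and 0 to 1 when an array was left out. The percentile over all probes called 1 class I pathway gene (Nlrc5, against 0) and 1 probe between the chromosome 17 members (Tnf, against 0). Tap2 ran from −0.0484 to 0.45 when arrays were left out and was negative only without P38hetero replicate 3. The replicate block also called Ebf1 and changed no other call of a gene named here. The causes were not tested. Tap1, Nlrc5, Ciita, Ebf1 and Tnf were not well above background on all arrays, and Ciita, Ebf1 and Tnf were so on no P38ko array. Leaving Ciita out, chosen after seeing the data, gave a class II median of −0.91.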
